A study of Homo sapiens with 8 samples.

Results

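The brain metastatic lung adenocarcinoma subline PC9-BrM3 was set against its parental line PC9 by RNA sequencing of total RNA. The comparison used the 2 libraries titled PC9-BrM3 without a hairpin and the 2 titled PC9 Parental, 4 of the 8 libraries of the study, chosen by their titles, and all genes. Both lines grew in RPMI medium with HEPES (10 mM), pyruvate (1 mM), glucose (0.2%) and serum (10%), and RNA was taken from sub-confluent monolayers after 48 h in culture, with no drug or vector. The other 4 libraries are PC9-BrM3 cells with an inducible hairpin (2 with the non-target shNTC and 2 with shHSF1), selected with puromycin for 5 days and given 500 ng/mL doxycycline for 48 h. The stated purpose of the subline comparison was to find genes relevant to brain metastasis.

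PC9 is an established human lung adenocarcinoma line that carries an activating deletion in the EGF receptor gene EGFR. Brain metastatic sublines are usually made by recovering tumour cells from the brain of an injected mouse and growing them again in culture. In the brain, metastatic cells attach along capillaries, spread over the vessel surface and must withstand plasmin made by reactive glia. The adhesion molecule L1CAM is known for that spreading, and serpins are known for blocking plasmin. How PC9-BrM3 was derived, whether it is 1 clone, and whether replicates were separate cultures are not given in the sources used here, so the p-values speak of the spread between libraries, which may be technical. The cells were studied in culture, without brain tissue.

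The upstream sequences of a few interferon and amino acid response genes are shown first, because members of both lists are among the genes that changed and their known control elements can be read in them. Each run holds the 250 bases before the gene's start from RefSeq (GRCh38.p14), 5′ to 3′ on the gene's own strand. In the first set, capitals mark a match to the core of the interferon-stimulated response element, which reads GAAA, then 2 bases of any kind, then GAAA, on either strand, with overlapping matches joined. These are 3 interferon-stimulated genes that rose in PC9-BrM3: BST2 (chr19:17405631-17405880, minus strand), GBP1 (chr1:89065209-89065458, minus strand) and OAS3 (chr12:112938224-112938473, plus strand).
BST2: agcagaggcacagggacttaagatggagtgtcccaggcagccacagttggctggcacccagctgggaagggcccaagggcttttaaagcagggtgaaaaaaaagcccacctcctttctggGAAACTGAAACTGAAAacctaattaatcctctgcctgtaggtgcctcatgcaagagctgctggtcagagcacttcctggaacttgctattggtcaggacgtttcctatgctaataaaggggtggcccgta
GBP1: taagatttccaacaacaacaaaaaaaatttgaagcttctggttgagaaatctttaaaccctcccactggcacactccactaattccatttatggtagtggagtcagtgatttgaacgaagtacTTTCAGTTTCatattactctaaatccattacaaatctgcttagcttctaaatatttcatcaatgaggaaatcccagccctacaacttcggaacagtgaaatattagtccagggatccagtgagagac
OAS3: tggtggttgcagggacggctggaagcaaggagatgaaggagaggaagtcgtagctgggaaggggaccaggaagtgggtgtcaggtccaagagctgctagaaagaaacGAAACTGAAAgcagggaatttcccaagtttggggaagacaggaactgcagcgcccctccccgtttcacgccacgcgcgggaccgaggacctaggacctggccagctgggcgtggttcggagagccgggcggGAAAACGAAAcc

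In the second set, capitals mark a match to TGATGNAA on either strand, a form of the element bound by the transcription factor ATF4 in genes of amino acid supply. These 3 genes fell in PC9-BrM3: ASNS (chr7:97872409-97872658, minus strand), GARS1 (chr7:30594628-30594877, plus strand) and CHAC1 (chr15:40953221-40953470, plus strand).
ASNS: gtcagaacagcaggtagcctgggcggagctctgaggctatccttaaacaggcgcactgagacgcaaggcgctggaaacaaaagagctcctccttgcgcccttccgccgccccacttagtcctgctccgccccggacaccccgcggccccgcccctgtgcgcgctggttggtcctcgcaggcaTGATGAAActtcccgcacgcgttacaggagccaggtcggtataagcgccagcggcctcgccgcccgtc
GARS1: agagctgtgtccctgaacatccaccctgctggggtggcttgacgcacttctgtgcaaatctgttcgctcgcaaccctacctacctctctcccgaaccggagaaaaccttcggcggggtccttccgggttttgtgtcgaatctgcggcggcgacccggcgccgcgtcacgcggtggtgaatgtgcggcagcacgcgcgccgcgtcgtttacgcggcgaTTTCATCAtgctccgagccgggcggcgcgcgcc
CHAC1: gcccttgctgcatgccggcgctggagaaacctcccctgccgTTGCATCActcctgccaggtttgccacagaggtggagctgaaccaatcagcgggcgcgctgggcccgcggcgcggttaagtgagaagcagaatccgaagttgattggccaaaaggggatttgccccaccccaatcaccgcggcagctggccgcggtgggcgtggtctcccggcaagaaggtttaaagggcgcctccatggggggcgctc

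The interferon element was found in 6 of the 8 interferon-stimulated genes called higher that the RefSeq table holds, and in 17 of 29 other tested members of that list. Among all 27305 genes with a promoter there, 3.71% held it in a window of the same length, and among the 11189 tested ones 3.28%. The ATF4 element was found in 3 of 12 list members called lower and in 3 of 15 other tested members, against 3.89% of all genes and 2.34% of tested genes. A match is a description of these letters only, and members that did not change also held them.

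The 4 libraries held 56715336 and 52112248 counts (PC9 parental Rep 1 and Rep 2) and 52076511 and 39676578 counts (PC9-BrM3 Rep 1 and Rep 2). The 2 PC9-BrM3 libraries were far less alike than the parental pair: the median absolute log2 ratio between replicates was 0.36 against 0.13, and 2040 against 254 of 17372 genes lay over 2-fold apart. Counts of the mitochondrial chromosome made up 6.23% and 4.2% of the parental libraries, 5.40% of PC9-BrM3 Rep 1 and 17.3% of PC9-BrM3 Rep 2 (exact binomial 95% interval 17.28% to 17.30%, counting error only). The groups overlapped in this share, with a difference of 6.13 percentage points (two-sided exact permutation p = 0.667; 2 against 2 libraries cannot go below 0.333). Below, values are normalized CPM (counts scaled to the depth of the library, with TMM factors) and stand in the order parental Rep 1, parental Rep 2, BrM3 Rep 1, BrM3 Rep 2. A gene is called at an adjusted p under 0.05 in edgeR's quasi-likelihood test, and log2 fold changes are given ± SE with n = 2 per group.

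The libraries were checked against cell type markers. The epithelial genes EPCAM (453, 466, 381 and 547 CPM) and KRT8 (751, 828, 1134 and 945 CPM) were abundant in all 4 libraries. The lung lineage factor NKX2-1 was near 0 in each, at 5, 1, 1 and 0 counts. Of 12 fibroblast and mural markers 4 were at 0 in all 4 libraries, COL3A1, DCN, LUM and POSTN, and the list summed to 7.94 and 8.64 CPM in PC9 parental and 8.26 and 12.1 CPM in PC9-BrM3. The 12 leukocyte and microglia markers summed to 1.47 and 1.74 CPM against 3.20 and 2.95 CPM, and of the 4 tested ones ITGAM, an integrin subunit, rose from 0.222 and 0.183 to 1.34 and 1.82 CPM, a call lost without either parental library. Among 11 endothelial markers PECAM1, CLDN5 and ERG were at 0 in all 4 libraries, and the list summed to 65.1 and 61.8 CPM against 46.0 and 35.6 CPM, most of it CDH5 (53.3, 48.9, 31.4 and 24.3 CPM). Of 34 neuron, glia and neuroendocrine markers 11 were at 0 in all 4 libraries and 14 were tested, of which ALDH1L1 and SLC1A2, an astrocyte enzyme and glutamate transporter, rose. ALDH1L1 lost its call without parental Rep 1 and SLC1A2 without either parental library. The more abundant astrocyte transporter SLC1A3 had 250.3, 255, 198 and 215 CPM and did not pass (−0.29 ± 0.14). The astrocyte marker GFAP and the neuron marker RBFOX3 had at most 0.0579 CPM and 0.0182 CPM. In bulk RNA, fewer cells of a type and less RNA per cell cannot be told apart.

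Of 17372 genes tested, 672 (3.87%) were higher in PC9-BrM3 and 568 (3.27%) were lower, which is 7.14% in all. At least 2-fold changes made up 569 (3.28%) of the genes that rose and 463 (2.67%) of those that fell, as shares of all tested genes. All 1240 called genes had values without overlap between the lines, as had 59.0% of all tested genes. The median log2 fold change over all tested genes was 0.01. Without PC9 parental Rep 1 the counts were 182 higher and 220 lower, and without PC9 parental Rep 2 they were 254 and 225. Without PC9-BrM3 Rep 1 they were 4702 and 4526 (51.1% of tested genes), and without PC9-BrM3 Rep 2 they were 2693 and 2901 (30.8%). In the latter 2 fits the spread came from the parental pair alone.

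**Figure D1:**
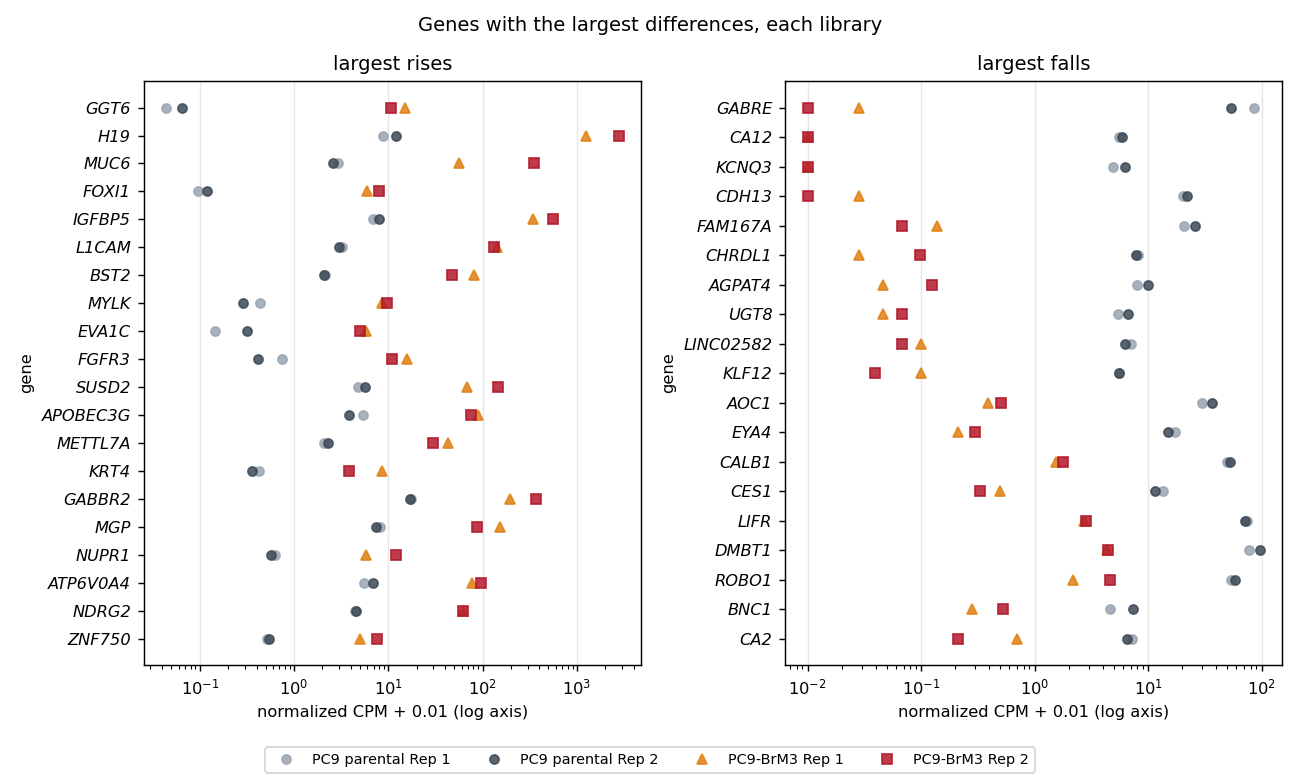
Normalized CPM (plus 0.01, log axis) of the genes that rose most and those that fell most in PC9-BrM3, 1 point per library. The replicates of a group lie close together for L1CAM (143 and 133 CPM in PC9-BrM3) and far apart for MUC6 (55.9 and 349 CPM).

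The 3 genes given as marks of the subline separated the lines. They were named with earlier results of these data known, so their values and p-values describe them and are no independent support. L1CAM (chrX:153126969-153174677, GRCh37) encodes a neural cell adhesion molecule and measured 3.24, 3.0, 143 and 133 CPM. It rose by 5.47 ± 0.18 on the log2 scale, or 44.3-fold (adjusted p = 0.00156), and both PC9-BrM3 libraries stood far above both parental ones. BST2 (chr19:17513748-17516457), the interferon-inducible membrane protein tetherin, measured 2.10, 2.06, 81.6 and 46.8 CPM and rose by 4.95 ± 0.33 (adjusted p = 0.00344). CDH13 (chr16:82660408-83830204), the membrane-anchored T-cadherin, had 20.1 and 21.9 CPM in PC9 parental and a single count in the 2 PC9-BrM3 libraries together. Its ratio of counts at equal depth was 1877, with a 95% counting interval from 336 to 74150 (adjusted p = 0.00156). All 3 kept their call in every alternative fit that was run.

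Among the genes that rose most, H19 (chr11:2016406-2022700), an imprinted noncoding RNA of fetal tissue, measured 8.74, 11.9, 1259 and 2769 CPM, a rise of 7.60 ± 0.51 (adjusted p = 0.00349). Its neighbour IGF2, which shares imprinting control with H19, stayed low at 28, 17, 25 and 56 counts. IGFBP5, which binds insulin-like growth factors, went from 6.95 and 7.97 to 342 and 553 CPM, a rise of 5.91 ± 0.31. GGT6, a gamma-glutamyltransferase family gene, had 5 counts in PC9 parental against 1201 in PC9-BrM3 (ratio 304, 95% counting interval 130 to 937). FOXI1, a transcription factor of ion-transporting epithelial cells, and ATP6V0A4, a proton pump subunit, also rose. They measured 0.0854, 0.110, 5.94 and 7.88 CPM and 5.48, 6.92, 77.3 and 95.4 CPM. The receptor tyrosine kinase FGFR3 rose by 4.54 ± 0.38 from 0.734 and 0.402 to 15.7 and 10.9 CPM. GABBR2, a subunit of the metabotropic GABA receptor, rose by 4.02 ± 0.34 and measured 17.6, 16.9, 195 and 365 CPM. The cytidine deaminase APOBEC3G (5.41, 3.80, 88.4 and 74.8 CPM), the matrix protein MGP (8.08, 7.45, 153 and 86.5 CPM) and NDRG2 (4.44, 4.49, 61.9 and 61.4 CPM) rose as well. APOBEC3G has close paralogs, so reads may be shared among them. Among abundant genes, the receptor adaptor ARRB1 rose 10.5-fold (28.5, 33.2, 354 and 294 CPM) and the exporter ABCC4 rose 8.90-fold (25.7, 26.2, 255 and 207 CPM).

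The genes that fell most went to or near 0. GABRE (chrX:151121596-151143152), a subunit of the ionotropic GABA receptor, had 85.9 and 53.6 CPM in PC9 parental and 1 count in PC9-BrM3 (ratio 6296, 95% counting interval 1130 to 248720). Its call (adjusted p = 0.00189) was lost without either PC9-BrM3 library, with an adjusted p of at most 0.0808 over all alternatives. The carbonic anhydrase CA12 had 651 counts in PC9 parental and 0 in PC9-BrM3, which makes it at least 172-fold lower against a floor of 3 counts over the group. KCNQ3, a voltage-gated potassium channel, went from 631 to 0 counts, at least 166-fold lower by the same floor. LIFR, the receptor subunit for leukaemia inhibitory factor, fell by 4.72 ± 0.17, from 74.1 and 71.5 to 2.71 and 2.81 CPM. Both replicates of each line were nearly equal for this receptor. The calcium-binding protein CALB1 (49.1, 52.2, 1.53 and 1.77 CPM), the mucosal scavenger protein DMBT1 (77.6, 96.5, 4.38 and 4.43 CPM) and the polyamine-degrading oxidase AOC1 (30.1, 36.3, 0.381 and 0.492 CPM) fell too. Among abundant genes IL1RL1, the receptor for interleukin 33, fell by 2.45 ± 0.19 from 490 and 542 to 82.1 and 107 CPM. RDH10, a retinol dehydrogenase, fell by 1.96 ± 0.14 and had 212, 228, 56.9 and 55.9 CPM.

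Of 35 published mediators of lung or breast cancer brain metastasis, 27 were tested, and L1CAM was the 1 member that rose. Of all tested genes 3.87% rose and 3.27% fell, so 1 rise in 27 was near that share. The 6 that fell were SERPIND1, HBEGF, HOXB9, PLAU, MMP1 and MMP2, and the median log2 fold change of the 27 was −0.34. HBEGF, a ligand of the EGF receptor, measured 48.0, 41.0, 13.3 and 14.0 CPM (−1.71 ± 0.17, adjusted p = 0.00686). SERPIND1, an inhibitor of thrombin, had 6.57, 6.47, 1.73 and 1.25 CPM. SERPINI1, whose product inhibits plasminogen activators, is known with L1CAM from such studies and had 0.444, 0.749, 0.0726 and 0.405 CPM (adjusted p = 0.29). ST6GALNAC5, a sialyltransferase, had at most 0.0290 CPM in any library. Fewer members were called lower without either parental library. The list's median log2 ratio to the parental mean was −0.26 in PC9-BrM3 Rep 1 and −0.40 in Rep 2.

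In the plasminogen, serpin and metalloproteinase list, 5 of 35 tested members rose and 8 fell (median −0.28). The shares over all tested genes were 3.87% and 3.27%. SERPINE2, an inhibitor of thrombin and plasminogen activators, fell by 3.46 ± 0.22, from 379 and 364 to 28.1 and 39.5 CPM. PLAU, the urokinase plasminogen activator, measured 145, 151, 78.5 and 56.4 CPM and fell by 1.13 ± 0.20 on the log2 scale (SE). SERPINA5 went from 228 counts to 0, at least 60.1-fold lower. The members that rose were the cathepsins CTSH, CTSB and CTSV, lysosomal proteases, with CST1, a cysteine protease inhibitor, and TIMP3, an inhibitor of metalloproteinases. CTSH rose 3.43-fold (56.1, 57.5, 200 and 190 CPM). Without parental Rep 1 and without parental Rep 2 the list held 2 higher and 4 lower calls each.

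Of 31 tested neural adhesion and axon guidance genes 8 fell and 3 rose, where 3.27% and 3.87% of all tested genes did. The median log2 fold change was −0.34, with 12 of 31 above 0. ROBO1, the receptor for Slit guidance cues, fell by 4.08 ± 0.37, from 54.0 and 58.7 to 2.18 and 4.60 CPM. CNTN1, a contactin that pairs with adhesion molecules of the L1 family, had 561 counts against 1 (ratio 444, 95% counting interval 79.3 to 17553). SEMA3D, a secreted semaphorin, and NLGN1, a synaptic adhesion protein, went to 0 counts, at least 125-fold and 35.3-fold lower. ALCAM, an abundant adhesion molecule, had 468, 473, 102 and 144 CPM (−1.94 ± 0.21). The semaphorin receptor PLXND1 and SEMA5A rose with L1CAM, by 1.09 ± 0.15 and 1.12 ± 0.19, and neither call held without either parental library.

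The collagen, laminin and integrin list held 11 members that fell and 4 that rose of 39 tested (median −0.35). Over all tested genes 3.27% fell and 3.87% rose. Its summed level was 7690 and 7602 CPM in PC9 parental and 5391 and 5931 CPM in PC9-BrM3, without overlap. ITGA5, the alpha subunit of the fibronectin receptor, fell by 2.14 ± 0.16, from 246 and 272 to 62.5 and 54.9 CPM. Its ligand fibronectin, FN1, of the mesenchymal list, fell by 1.80 ± 0.24 and had 149, 164, 35.1 and 55.0 CPM. ITGB3, a vitronectin receptor subunit, fell by 2.79 ± 0.25 (57.7, 73.6, 11.2 and 7.73 CPM). The chain LAMA3 of the epithelial basement membrane laminin fell (235, 211, 77.5 and 88.2 CPM), as did the subunit ITGB4 of its receptor (53.4, 59.2, 23.3 and 29.5 CPM). Of the collagen IV chains, COL4A5 and COL4A6 fell, and COL4A1 rose from 7.53 and 6.38 to 18.6 and 23.6 CPM. FBLN1, a matrix glycoprotein, rose by 1.80 ± 0.15 (123, 133, 468 and 423 CPM). Members called lower numbered 6 without parental Rep 1 and 5 without parental Rep 2, and COL4A1 was not called in either.

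Of 42 tested epithelial genes 7 rose and 0 fell (median 0.22), with 33 of 42 log2 fold changes above 0. All tested genes had shares of 3.87% higher and 3.27% lower. By an unadjusted p under 0.05 in edgeR, 13 members were higher and 1 was lower. Of all 17372 tested genes 4368 had such a p in either direction. KRT5, a basal keratin, rose by 1.33 ± 0.15 (20.7, 21.6, 52.1 and 54.4 CPM), and KRT81, a hair-type keratin with near-identical paralogs, rose by 1.82 ± 0.20 (17.4, 17.6, 71.2 and 52.0 CPM). The tight junction protein CLDN1 rose from 41.3 and 41.8 to 80.6 and 109 CPM. KRT5, KRT80, with 70.2, 71.7, 143 and 163 CPM, and others lost their call without either parental library, which left 3 members each time. E-cadherin, CDH1, had 322, 355, 337 and 406 CPM (0.13 ± 0.16, adjusted p = 0.642). Of the mesenchymal list, 2 of 33 tested members rose and 5 fell, but the median log2 fold change was 0.26 and 18 of 33 were above 0. The balance of this list turned with the setting. DESeq2's Wald test called 10 higher and 7 lower, and no count filter gave 10 and 8. All 8 libraries in 1 fit gave 13 and 8. These fits also called more of all tested genes than the 672 higher and 568 lower reported above. DESeq2 called 1206 higher and 997 lower of 17372, and no count filter gave 1660 and 1499 of 29898. The fit of all 8 libraries gave 1991 and 1822 of 18122. The list's median log2 ratio to the parental mean was 0.12 in PC9-BrM3 Rep 1 and 0.04 in Rep 2. N-cadherin, CDH2, was at no more than 0.0183 CPM in any library, and vimentin, VIM, had 3.21, 3.69, 5.52 and 6.63 CPM (adjusted p = 0.0999).

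Of the lung lineage list 3 of 15 tested members fell and 1 rose, beside 3.27% and 3.87% of all tested genes. The surfactant protein gene SFTPB fell by 2.69 ± 0.33, from 11.1 and 14.9 to 1.53 and 2.55 CPM. The endoderm factor FOXA2 went from 72 counts to 1 (ratio 56.9, 95% counting interval 9.90 to 2280) and SOX2, a stem cell and airway factor, from 68 counts to 1 (ratio 53.8, interval 9.33 to 2155). HOPX, an alveolar type I cell gene, rose from 0.376 and 0.292 to 3.94 and 1.71 CPM. Among 26 tested mucins and vascular or coagulation signals 6 rose and 2 fell. MUC6, a gastric gel-forming mucin, measured 2.92, 2.56, 55.9 and 349 CPM (6.2 ± 0.95, adjusted p = 0.0221), a 6.24-fold gap within PC9-BrM3. Its call was lost with no count filter and without either parental library, where the adjusted p reached 0.608. The membrane mucin MUC1 rose by 2.22 ± 0.30 (11.5, 13.6, 42.5 and 74.0 CPM), and THBD, the anticoagulant thrombomodulin, fell by 1.95 ± 0.22 (32.0, 32.2, 6.90 and 9.73 CPM). Without parental Rep 1, 1 member of that list was called higher.

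**Figure D2:**
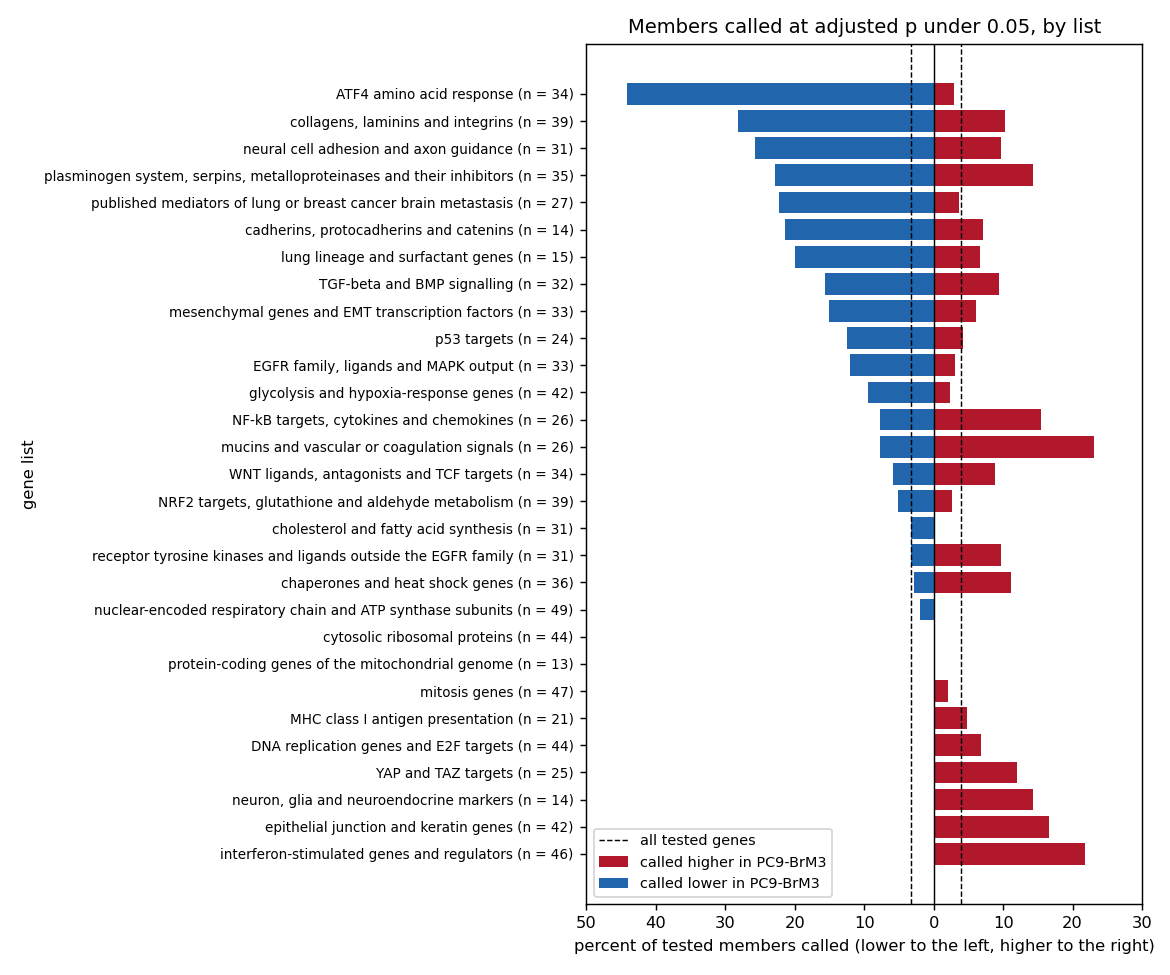
Percent of the tested members of each gene list (at least 10 tested) called higher, to the right, or lower, to the left, with the shares of all tested genes as dashed lines (3.87% and 3.27%). The ATF4 list reaches farthest to the left, with 15 of 34 members lower, and the mitochondrial and ribosomal lists have no called member.

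Genes of the ATF4 amino acid response were lower as a group. ATF4 is the transcription factor made when amino acids are short or proteins misfold, and it drives amino acid uptake, synthesis and tRNA charging. Of 34 tested members 15 fell, where 3.27% of all tested genes did, and 1 rose. The median log2 fold change was −0.76, and 5 of 34 values were above 0. The list summed to 6533 and 6747 CPM in PC9 parental and to 4051 and 3457 CPM in PC9-BrM3. ATF4 itself measured 353, 376, 189 and 116 CPM, a fall of 1.26 on the log2 scale (SE 0.25, adjusted p = 0.0435). The groups did not overlap, and PC9-BrM3 Rep 2 was the lowest library.

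Among the enzymes of amino acid synthesis, ASNS, which makes asparagine, fell by 2.10 ± 0.24, from 206 and 180 to 54.3 and 35.5 CPM. PSAT1, of serine synthesis, had 317, 296, 126 and 72.8 CPM (−1.62 ± 0.28), while PHGDH, the first enzyme of that pathway, had 376, 414, 290 and 206 CPM (adjusted p = 0.115). CTH, which makes cysteine, was even between replicates at 78.9, 80.1, 23.6 and 24.6 CPM and fell by 1.72 ± 0.14. The mitochondrial folate enzymes MTHFD2 (271, 294, 126 and 92.8 CPM) and SHMT2 (160, 167, 87.7 and 82.3 CPM) fell. Of the transporters, the cystine carrier SLC7A11 fell by 1.6 ± 0.17 (475, 421, 163 and 133 CPM) and the leucine carrier SLC7A5 by 1.05 ± 0.14 (185, 193, 95.3 and 87.4 CPM). The tRNA synthetase genes GARS1 (498, 473, 255 and 275 CPM) and YARS1 (389, 406, 236 and 203 CPM) fell. AARS1, SARS1 and WARS1 had log2 fold changes from −0.47 to −0.41 that did not pass.

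The stress regulators DDIT4, an inhibitor of mTORC1, and DDIT3, the transcription factor CHOP, fell by 2.42 ± 0.25 and 1.67 ± 0.25. DDIT4 measured 201, 259, 50.6 and 34.9 CPM. CHAC1, a glutathione-degrading enzyme, was low throughout and fell by 2.51 ± 0.42 (2.25, 3.27, 0.617 and 0.319 CPM). NUPR1, a stress-induced chromatin protein, was the member that rose, from 0.615 and 0.566 to 5.79 and 11.9 CPM (3.90 ± 0.43). The median log2 ratio to the parental mean was −0.63 in PC9-BrM3 Rep 1 and −0.91 in Rep 2. The larger mitochondrial share and lower ribosomal protein level of Rep 2 moved with it. Leaving the mitochondrial genes out of the fit again gave 15 lower and 1 higher. Any other part of that share, or of the ribosomal protein level, in the result was not tested. Calls lower numbered 8 without parental Rep 1 and 6 without parental Rep 2. They numbered 27 without PC9-BrM3 Rep 1 and 25 without PC9-BrM3 Rep 2, in fits that called 51.1% and 30.8% of all tested genes.

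**Figure D3:**
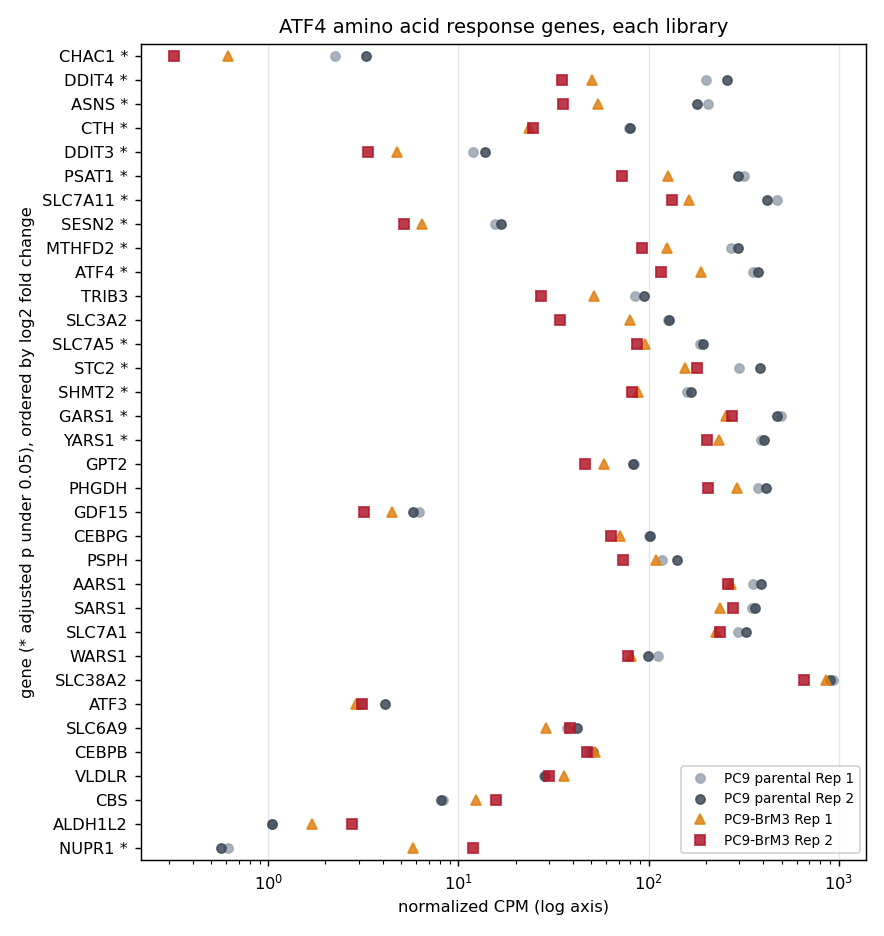
Normalized CPM (log axis) of the 34 tested ATF4 response genes in each library, ordered by log2 fold change, with called genes starred. The PC9-BrM3 points lie left of the parental points for ASNS (54.3 and 35.5 against 206 and 180 CPM) and to their right for NUPR1 (5.79 and 11.9 against 0.615 and 0.566 CPM).

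Interferon-stimulated genes moved unevenly. Cells make these antiviral proteins after interferon or viral RNA activates transcription factors such as STAT2 and IRF9. Of 46 tested members 10 rose, where 3.87% of all tested genes did, and 0 fell, and the median log2 fold change was 0.22. At an unadjusted p under 0.05 in edgeR, 3 members were lower, and DESeq2's Wald test called 12 higher and 0 lower. Of all 17372 tested genes 4368 had such an unadjusted p in either direction, and DESeq2 called 1206 higher and 997 lower. After BST2, the guanylate-binding proteins GBP1 (3.19, 4.02, 26.4 and 36.8 CPM) and GBP2 (11, 12.1, 38.9 and 47.1 CPM) rose by 3.13 ± 0.26 and 1.90 ± 0.18. XAF1, a proapoptotic interferon target, had 3 counts in PC9 parental and 365 in PC9-BrM3 (ratio 154, 95% counting interval 52.2 to 750). OAS3, a sensor of double-stranded RNA, rose by 1.35 ± 0.16 from 12.5 and 13 to 30.9 and 33.9 CPM.

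Other well-known members were not called. ISG15 had 0.188, 0.402, 0.690 and 0.232 CPM, with overlapping groups. MX1 had 2.05, 2.80, 3.70 and 4.75 CPM, higher in both PC9-BrM3 libraries, and did not pass (adjusted p = 0.157). The activators STAT2 (39.7, 49.6, 47.7 and 38.8 CPM) and IRF9 (0.802, 0.585, 0.781 and 0.782 CPM) did not pass, with log2 fold changes of −0.05 and 0.17. RSAD2 was at 0 in all 4 libraries. Without either parental library 4 members were called higher. The list's median log2 ratio to the parental mean was 0.11 in PC9-BrM3 Rep 1 and 0.38 in Rep 2.

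Among growth factor genes several ligands changed, while EGFR and MET did not pass. EGFR measured 1474, 1449, 1817 and 2126 CPM (0.43 ± 0.17, adjusted p = 0.186). Of 33 tested genes of the EGFR family, ligands and MAPK output, EGF rose and NRG1, EREG, HBEGF and PHLDA1 fell. For this list and those below, the shares over all tested genes were 3.87% higher and 3.27% lower. The ligand EGF rose by 2.19 ± 0.20 (4.85, 5.15, 25.2 and 20.5 CPM) and the ligand EREG fell by 1.15 ± 0.18 (34.4, 30.5, 13.1 and 16.1 CPM), a call lost without either parental library. The receptor MET had 343, 325, 233 and 211 CPM, without overlap between groups, and did not pass (−0.59 ± 0.14, adjusted p = 0.071). Of the TGF-beta and BMP list 3 of 32 tested members rose and 5 fell: BMP2, a ligand, went from 132 counts to 0, at least 34.8-fold lower, and ID1, a BMP target, fell by 1.71 ± 0.27, a call lost without parental Rep 2. In the NF-kB and cytokine list 4 of 26 tested members rose and 2 fell. The interleukins IL1A (3.02, 3.05, 0.145 and 0.203 CPM) and IL1B (4.37, 4.09, 0.617 and 0.724 CPM) fell, and their receptor IL1R1 rose (26.4, 30.1, 61.4 and 93.1 CPM). The 2 interleukin calls held in every alternative, and 0 and 1 of the rises were called without parental Rep 1 and Rep 2.

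The kinases and the transcription factor studied in these cells were not called. HSF1, the heat shock transcription factor, measured 45.3, 47.7, 52.8 and 50.7 CPM (0.15 ± 0.14, adjusted p = 0.531). ABL1 had 57.5, 57.4, 54.8 and 47.2 CPM (−0.17 ± 0.15, adjusted p = 0.514). ABL2 had 81.3, 70.6, 62.6 and 57.4 CPM (−0.34 ± 0.16, adjusted p = 0.24). HSF1, ABL1 and ABL2 had groups that did not overlap, as had 59.0% of all tested genes. Of 36 tested chaperones 4 rose and 1 fell, beside 3.87% and 3.27% of all tested genes. The small heat shock protein HSPB8 rose by 2.88 ± 0.19 (3.02, 3.16, 22.0 and 23.7 CPM), and HSPA5, the abundant chaperone of the endoplasmic reticulum, fell by 0.78 on the log2 scale, close to the threshold (adjusted p = 0.0486). Its call was lost in 5 alternatives, among them the fits without either parental library.

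Other lists differed in how many members were called, where 7.14% of all tested genes were called in either direction. The share was above that for the cadherin and catenin, p53, WNT, YAP and TAZ, and glycolysis and hypoxia lists. It was below for the mitosis, sterol and fatty acid, and antigen presentation lists. It was near that share for DNA replication genes (6.82%) and for NRF2 and glutathione genes (7.69%). Of 44 tested DNA replication genes 3 rose and 0 fell (median 0.27), CCNE2, E2F8 and RRM2, and of 47 mitosis genes NCAPG rose (median 0.22). None of these 4 calls held without either parental library. Of 25 tested YAP and TAZ targets 3 rose and 0 fell. ANKRD1, a nuclear ankyrin repeat protein, was the largest at 7.80, 6.82, 50.8 and 77.3 CPM (3.13 ± 0.26), while CCN1, a secreted matrix protein, had 37.0, 35.6, 56.4 and 77.1 CPM and did not pass (adjusted p = 0.0567). In the WNT list 3 of 34 tested members rose and 2 fell: the ligand WNT11 rose by 2.90 ± 0.29 (0.529, 0.694, 4.49 and 4.69 CPM), and DKK3, of the Dickkopf family, went from 73 counts to 0, at least 19.2-fold lower. Of 14 tested cadherins and catenins CDH13, CDH5 and DSG2 fell and PCDH19 rose, and without either parental library 1 member was lower and 0 higher, since CDH5, DSG2 and PCDH19 lost their calls. In the glycolysis and hypoxia list 1 of 42 tested members rose, the glucose transporter SLC2A3, and 4 fell, among them CA12 and the lactate carrier SLC16A1 (248, 233, 131 and 123 CPM). Of 39 NRF2 and glutathione genes 1 rose and 2 fell, of 31 sterol and fatty acid synthesis genes 1 fell, of 21 antigen presentation genes 1 rose, and of 24 p53 targets 1 rose and 3 fell. Sterol and fatty acid genes called lower numbered 5 by DESeq2's Wald test, 10 with no count filter and 10 with all 8 libraries in 1 fit. Over all tested genes these fits called 997 lower of 17372, 1499 of 29898 and 1822 of 18122. The sterol and fatty acid genes had a median log2 ratio to the parental mean of −0.24 in PC9-BrM3 Rep 1 and −0.41 in Rep 2. The 1 call, NSDHL, was lost without either parental library. Antigen presentation genes had a median log2 ratio to the parental mean of 0.01 in PC9-BrM3 Rep 1 and −0.38 in Rep 2. Their 1 call, TAPBPL, was lost without either parental library.

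**Figure D4:**
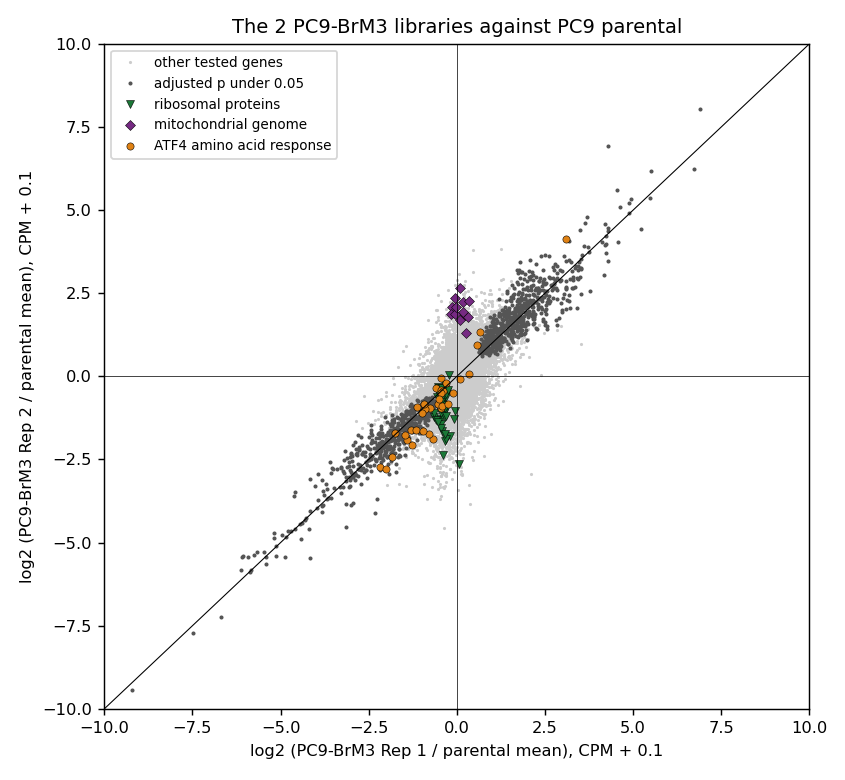
Log2 ratio of PC9-BrM3 Rep 1 (horizontal) and Rep 2 (vertical) to the mean of the 2 parental libraries, on CPM plus 0.1, for each tested gene. Called genes follow the diagonal, while the 13 mitochondrial genes stand above it (medians 0.10 in Rep 1 and 1.93 in Rep 2) and most of the 44 ribosomal protein genes below it (medians −0.37 and −0.98).

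The 2 PC9-BrM3 libraries differed from each other in mitochondrial and ribosomal genes. The 13 protein-coding genes of the mitochondrial genome had a median log2 ratio to the parental mean of 0.10 in Rep 1 and 1.93 in Rep 2, and 0 were called. MT-ND5, a subunit of respiratory complex I, had 2826, 1839, 2508 and 14876 CPM (adjusted p = 0.205). The 44 ribosomal protein genes had medians of −0.37 and −0.98. All 44 had a log2 fold change below 0 and 42 of 44 had groups that did not overlap, against 59.0% of all tested genes. In edgeR 0 were called and 28 had an unadjusted p under 0.05, as had 4368 of all 17372 tested genes in either direction. DESeq2's Wald test called 11 lower. All 8 libraries in 1 fit gave 26 lower, no count filter 21, and leaving out PC9-BrM3 Rep 1 or Rep 2 gave 43 or 38, in fits that called 51.1% and 30.8% of all tested genes. Over all tested genes DESeq2's Wald test called 997 lower of 17372, all 8 libraries 1822 of 18122 and no count filter 1499 of 29898. RPL10 had 606, 695, 673 and 105 CPM, so that PC9-BrM3 Rep 2 alone was low. Near-identical pseudogenes such as RPL10P9 (29.6, 32.0, 34.6 and 5.99 CPM) were low in the same library, and their reads cannot be assigned with certainty. Of the 49 nuclear respiratory chain genes 1, COX5A, fell (not called without either parental library). Without PC9-BrM3 Rep 1, 38 were lower and 4 higher, and without PC9-BrM3 Rep 2, 6 were lower and 2 higher. The list medians were −0.11 in Rep 1 and −0.59 in Rep 2.

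The disagreement ran with gene length. In the shortest quintile of genes by exon length in the files (53 to 1656 bases) the median log2 ratio of Rep 1 to Rep 2 was 0.25, and in the longest quintile (6991 to 91667 bases) it was −0.11. In the parental pair the same medians were −0.02 and 0.03. The share of genes called went from 3.48% in the shortest to 10.2% in the longest quintile. RNA quality was not tested.

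Neighbouring genes were higher or lower as groups in some regions. The genome was divided into bins of 20 Mb (GRCh37), and 156 bins held at least 20 tested genes. Their median log2 fold change ran from −0.45 to 0.53, while the medians of the replicate ratios ran from −0.09 to 0.11 in the parental pair and from −0.23 to 0.19 in the PC9-BrM3 pair. The highest bin was chromosome 4 from 0 to 20 Mb, with a median of 0.53 over 119 genes, of which 15 rose and 0 fell, and with medians of 0.44 in PC9-BrM3 Rep 1 and 0.60 in Rep 2. It holds FGFR3, the ciliary gene CC2D2A, which rose by 2.79 ± 0.28 (1.43, 1.79, 9.41 and 12.9 CPM), and WFS1, a membrane protein of the endoplasmic reticulum (13.5, 15, 48.1 and 98.5 CPM). Chromosome 12 from 120 to 140 Mb (median 0.41, 10 of 122 higher) and chromosome 3 from 120 to 140 Mb (median 0.35, 15 of 137 higher and 1 lower) followed. In the latter MYLK, the myosin light chain kinase, rose by 4.70 ± 0.31. The lowest bins were chromosome 15 from 80 to 100 Mb (median −0.45, 2 of 104 higher and 6 lower) and chromosome 3 from 160 to 180 Mb (median −0.44, 1 of 63 higher and 5 lower). The keratinocyte factor BNC1, on chromosome 15, fell by 3.95 ± 0.44 (4.61, 7.31, 0.272 and 0.521 CPM). Where 7.14% of all tested genes were called, the share was 12.6% in the chromosome 4 bin and 8.20% in the chromosome 12 bin. On chromosome 3 it was 11.7% from 120 to 140 Mb and 9.52% from 160 to 180 Mb, and 7.69% in the chromosome 15 bin. The chromosome 12 and 15 bins were thus near the share of all genes. DNA copy number was not measured.

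**Figure D5:**
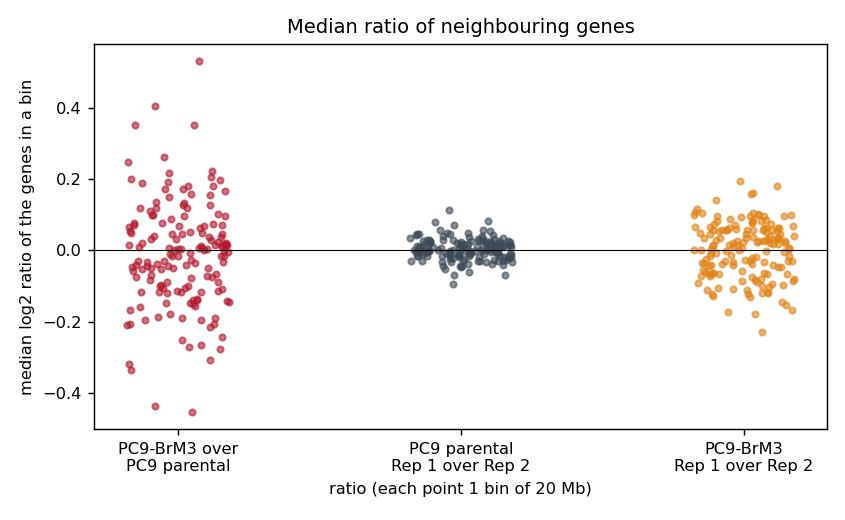
Median log2 ratio of the tested genes in each of 156 bins of 20 Mb, for PC9-BrM3 over PC9 parental and for the replicates of each line. The bins span −0.45 to 0.53 between the lines, −0.09 to 0.11 within the parental pair and −0.23 to 0.19 within the PC9-BrM3 pair.

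PC9-BrM3 cells with the non-target hairpin shNTC give another view of the same subline, though the hairpin, doxycycline, puromycin selection and sequencing lane cannot be told apart there, and no test was made. On a scale shared by all 8 libraries, L1CAM had 36.2 and 33.4 CPM in shNTC, between the untransduced subline (148 and 139 CPM) and PC9 parental (3.36 and 3.14 CPM). BST2 had 72.7 and 71.2 CPM in shNTC, beside 84.4 and 48.6 CPM in PC9-BrM3. CDH13 had 0 and 0.0272 CPM in shNTC, beside 0.0188 and 0 CPM, and GABRE had 0.0413 and 0 CPM, beside 0.0188 and 0 CPM. ASNS had 48.8 and 33.3 CPM in shNTC, 56.2 and 36.8 CPM in PC9-BrM3 and 213 and 188 CPM in PC9 parental. Other genes stood near or beyond their parental level in shNTC. The membrane-bound methyltransferase METTL7A had 1.92 and 2.56 CPM in shNTC, 44.6 and 31.2 CPM in PC9-BrM3 and 2.14 and 2.41 CPM in PC9 parental. ABCC4 had 23.7 and 28.7 CPM in shNTC, beside 264 and 215 CPM in PC9-BrM3 and 26.6 and 27.4 CPM in PC9 parental. FN1, lower in PC9-BrM3 (36.3 and 57.1 CPM) than in PC9 parental (154 and 172 CPM), had 334 and 382 CPM in shNTC.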

How the data were processed

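Read counts per gene were deposited for 8 libraries, and the 4 untransduced ones were used. The counts were made by the authors over exons with featureCounts 1.6.1, per the file headers, and were analysed as deposited. Per the submitters' processing notes, Trim Galore, HISAT2, featureCounts, DESeq2 and the build GRCh37 were used. The roles and versions of the others are not given in the sources used here. The file headers name lane 7 for these 4 libraries and lane 1 for the transduced ones. The files hold 63677 gene IDs, of which 52181 (81.9%) were given a symbol. Totals ran from 39676578 to 56715336 counts, and intervals and limits from 0 counts (3 counts over the group) cover counting error only.

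Groups came from sample titles. Genes were filtered with filterByExpr (minimum count 10, minimum total 15), scaled by TMM and tested with the quasi-likelihood F test of edgeR 4.0.16 (limma 3.58.1, R 4.3.3; robust=TRUE, group as the only term, 2 residual degrees of freedom), with Benjamini-Hochberg adjustment over all tested genes and a threshold of 0.05. The replicates of each line differed beyond sampling noise (chi-square per degree of freedom 27.7 and 335), so none was a copy. The test was tried on simulated counts, but the outcome is not given here, so its error rate at this sample size is not shown. Alternatives were other scalings and filters, DESeq2 1.42.0, all 8 libraries in 1 fit, a replicate block, mitochondrial genes left out, robust=FALSE, and leaving out each library.

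The members and the 33 gene lists were chosen with earlier results of these data known. Named genes were the 20 largest rises and falls at a mean of at least 5 CPM in 1 group with groups that do not overlap, up to 4 members per list and direction by smallest p, called genes among the 10 extreme ones at 100 CPM, the extreme genes of 6 bins, the 10 genes farthest apart each way between the PC9-BrM3 libraries, and HSF1, ABL1, ABL2, L1CAM, BST2 and CDH13. Further list members were named after their values were seen. RefSeq promoters were matched by symbol. A few genes are not reported here.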

Additional observations from a re-analysis of the deposited data

How the results depend on the processing

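Counts are given as higher and lower, then at least 2-fold higher and lower; these were 672, 568, 569 and 463 as reported. DESeq2's Wald test gave 1206 and 997 calls in all. No count filter, with 29898 genes tested, gave 1660, 1499, 1010 and 833. All 8 libraries in 1 fit gave 1991, 1822, 936 and 752. Leaving out 1 library each gave 182 to 4702, 220 to 4526, 182 to 1696 and 220 to 1799, the lowest values without a parental library and the highest without PC9-BrM3 Rep 1. Other scalings, the filter at 1 CPM, mitochondrial genes left out and robust=FALSE kept these counts within 1.5 times. Of 191 named genes that were called, 102 kept the call without parental Rep 1, 113 without parental Rep 2, 188 and 189 without PC9-BrM3 Rep 1 and Rep 2. MAGEA4, a cancer testis antigen gene, had a log2 fold change of 0.01 and was not called. It ranged from −0.36 without PC9-BrM3 Rep 1 to 0.30 without PC9-BrM3 Rep 2. Its levels were 359 and 407 CPM in PC9 parental, 476 CPM in PC9-BrM3 Rep 1 and 297 CPM in Rep 2. The sign thus followed the PC9-BrM3 library kept, and the cause of the gap between those libraries was not tested. The replicate block gave 717 and 611 calls, 638 and 529 at least 2-fold, and 14 named genes lost their call. Deviations of same-numbered libraries correlated at 0.0095 over genes, so they shared little deviation. This cannot tell whether the samples were prepared as pairs. Depth limits genes near the floor: 3 counts in PC9-BrM3 Rep 2 are 0.0756 CPM.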
